A study of Mus musculus with 4 samples.

Results

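Histone H3 trimethylated at lysine 27 (H3K27me3) was examined at 10 genes of the Notch pathway in 2 populations of mouse blood progenitors. The genes were the receptors Notch1 and Notch3, the ligands Dll1, Dll4, Jag1 and Jag2, and the target genes Hes5, Hey1, Heyl and Dtx1. Each gene was represented by a fixed window of 30 to 80 kb on the mouse build mm9, 520 kb in all, and every deposited peak that overlapped a window was taken. This gave 19 of the 20024 peaks of the bone marrow list and 29 of the 31847 peaks of the fetal liver list. The windows were set by position and not by the height or the presence of a peak. The genes themselves were chosen with earlier results of these data known. Positions of exons and start sites on mm9 were not used here, so a peak is described by its place in the window and not as promoter, exon or intron. A window may also reach into neighbouring genes, so its cover cannot be credited to the named gene alone.

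The study comprised 4 samples, an H3K27me3 immunoprecipitation and an input from each population. Both populations were depleted of mature blood cells by sorting for the lineage-negative fraction, and both came from the strain C57BL/6. One was from the bone marrow of 8-week-old mice and the other from fetal livers at embryonic day 14.5. Both carried the same lentivirus, NOTCH1ΔE (N1dE), and were sorted for its GFP marker after 3 days of culture, so neither is a population without forced Notch signalling. The labels do not say whether the NOTCH1ΔE sequence is human or mouse, nor how many animals were pooled. Chromatin was cut with micrococcal nuclease and precipitated without crosslinking. There was 1 peak list per population, called on merged libraries with the input as control. Replicate error therefore cannot be estimated, the 2 populations were not tested against each other, and the read depth is unknown. No expression was measured in these samples, so neither the identity of the cells nor the activity of the genes was checked.

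Notch receptors are cell-surface proteins that are cut when a Delta-like or Jagged ligand on a neighbouring cell binds them. The freed intracellular part enters the nucleus, joins the DNA-binding protein RBPJ and switches on target genes such as those of the Hes and Hey families. In blood formation the pathway is best known for directing progenitors to the T-cell fate, and overactive NOTCH1 is a common driver of T-cell leukaemia. H3K27me3 is placed by Polycomb repressive complex 2 and is a mark of silenced genes, often of developmental regulators with CpG-rich promoters.

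H3K27me3 peaks were called at 9 of the 10 loci, the same 9 in both populations, and at neither population's Notch1 locus. All deposited peaks were counted, including weak ones. Their −log10 q went down to 0.58 at these loci in bone marrow and 0.40 in fetal liver (0.27 and 0.32 in the whole lists). As a background, 17.7% of all 50 kb tiles of the genome held a bone marrow peak, 22.6% a fetal liver peak and 15.5% a peak of each. These tiles include stretches without genes, and the 10 genes were not chosen blind to these data, so the 2 are not matched. The 10 windows were covered for 71.0 kb (13.7%) by the bone marrow list and for 98.3 kb (18.9%) by the fetal liver list. The ratio of covered length, fetal liver over bone marrow, was therefore 1.38, against 1.51 for the whole lists. The 4 targets were the most densely marked group, with 22.9% of their windows covered in bone marrow and 34.8% in fetal liver. The 4 ligands followed with 13.9% and 18.9%, and the 2 receptors had 3.39% and 2.00%. These shares depend on the window widths, which were 30 to 60 kb for the targets and 70 and 80 kb for the receptors.

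**Figure D1:**
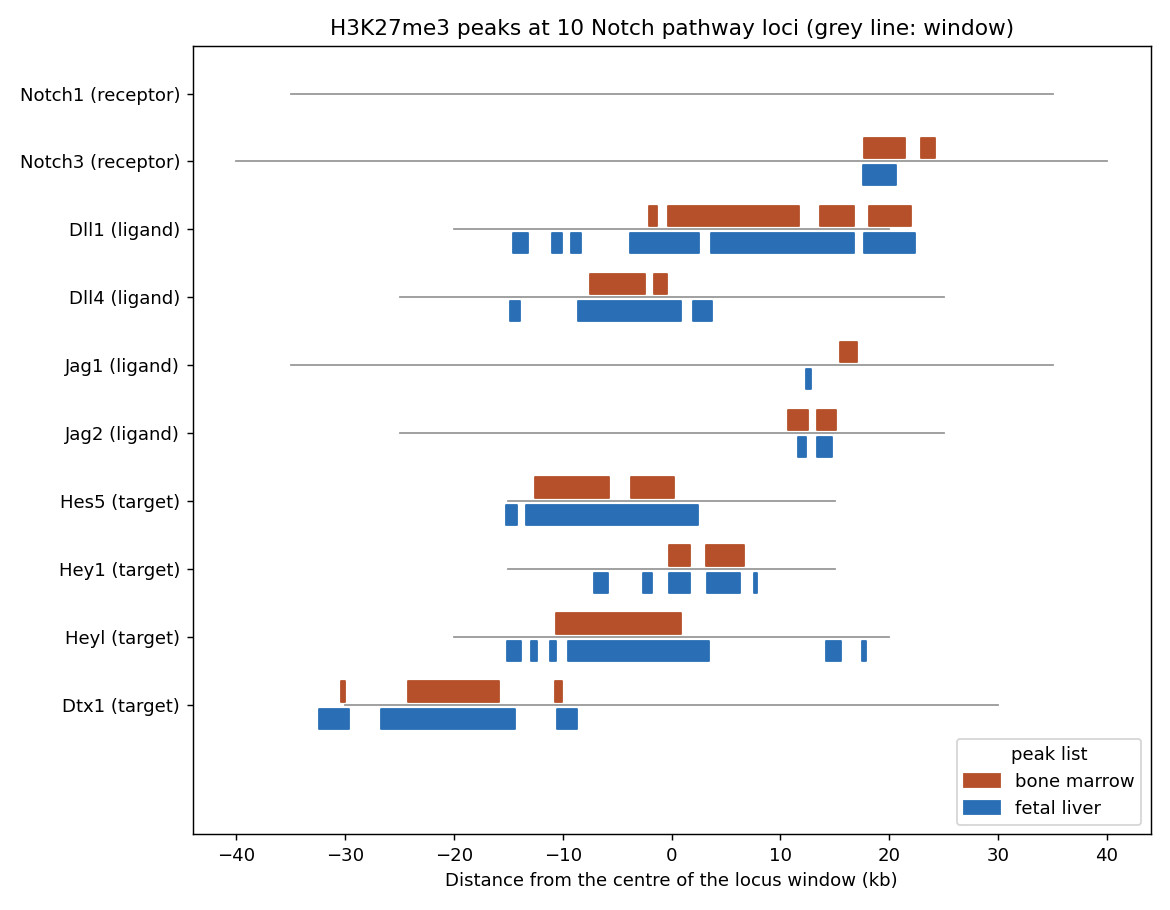
Position of every H3K27me3 peak at the 10 Notch pathway loci, as distance in kb from the centre of each window, with bone marrow peaks above and fetal liver peaks below the grey line that spans the window. Notch1 has no peak, Notch3, Jag1 and Jag2 have short peaks, and Dll1, Dll4, Hes5, Heyl and Dtx1 have peaks of more than 5 kb in both lists.

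The direction of the difference was not the same at all loci. Fetal liver peaks covered more bases at 6 of the 9 marked loci (Dll1, Dll4, Hes5, Hey1, Heyl and Dtx1), and bone marrow peaks covered more at 3 (Notch3, Jag1 and Jag2). Among all 50 kb tiles with a peak in either list, 74.1% were covered more in fetal liver and 25.9% more in bone marrow, so 6 against 3 is close to the genome as a whole. With a call at 1.5-fold, 3 loci were covered more in fetal liver (Dll4, Hes5 and Dtx1) and 3 more in bone marrow (Notch3, Jag1 and Jag2). The tiles passed this rule in 56.6% of cases for fetal liver and 16.5% for bone marrow. In tiles with a peak in both lists, which is the state of the 9 loci, the shares were 44.7% and 12.3% (72.6% and 27.3% were covered more to any extent), and the median ratio was 1.38, with an interquartile range of 0.97 to 2.24. The median ratio of the 9 loci was 1.40.

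**Figure D2:**
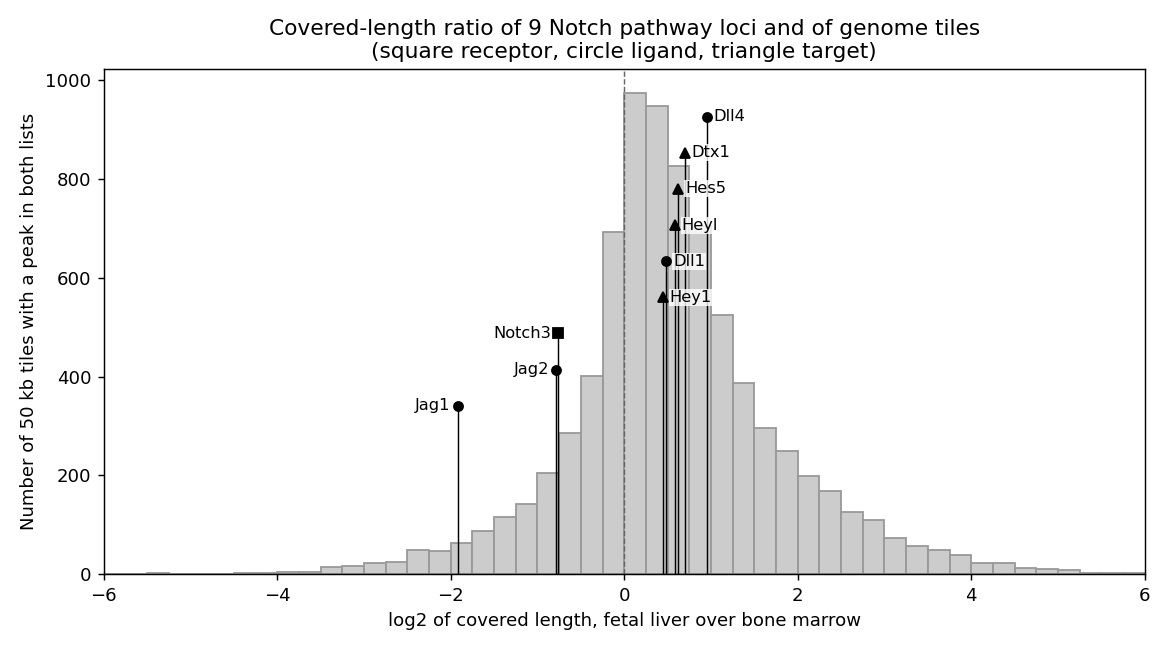
Histogram of the log2 ratio of covered length, fetal liver over bone marrow, over the 50 kb genome tiles with a peak in both lists, with the 9 marked Notch pathway loci drawn as labelled lines whose heights have no meaning (5 tiles lie beyond the axis). The 6 loci covered more in fetal liver, among them all 4 targets, lie between ratios of 1.36 and 1.94, and Notch3, Jag2 and Jag1 lie at 0.591, 0.582 and 0.264.

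This order changed when peaks were selected by rank or score. Keeping only the 20024 fetal liver peaks with the highest −log10 p, to equal the bone marrow list in number, turned the ratio over the 10 loci to 0.885, while that of the whole lists was 1.09. Only Dll4 (1.94), Hes5 (1.54) and Heyl (1.40) were then still covered more in fetal liver, and Dll1 (0.483), Hey1 (0.798) and Dtx1 (0.0438) turned to bone marrow. When peaks below a −log10 q of 2 were dropped, the ratio over the 10 loci was 0.0867, and when peaks below 3-fold enrichment were dropped it was 0.102. The whole lists also turned to bone marrow under these cuts, with ratios of 0.692 and 0.674. Under the first of them no fetal liver peak was left at Hes5, Dll1 or Dtx1, while Dll4 and Hey1 had fetal liver peaks alone and Heyl had none of either list.

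The receptor Notch1, the gene whose truncated form was introduced into these cells, had no peak of either list in its 70 kb window (chromosome 2, 26.30 to 26.37 Mb). The closest bone marrow peaks lay 236 kb before and 166 kb after the window, and the closest fetal liver peaks 179 kb before and 145 kb after it. No peak at an unknown depth does not show that the mark is absent. Among the tiles, 75.2% also had no peak in either list. Notch3, a receptor best known from vascular smooth muscle and from developing T cells, had a short marked stretch on the high-coordinate side of its 80 kb window. Bone marrow had 2 peaks there, of 3.80 kb (chromosome 17, 32297672 to 32301472) and 1.28 kb (32302896 to 32304176), and fetal liver had 1 of 3.00 kb (32297623 to 32300626). Bone marrow thus covered 5.08 kb and fetal liver 3.00 kb, and all but 49 bp of the fetal liver peak lay inside the wider bone marrow peak. The narrower list had the stronger peak by rank within its own list. The fetal liver peak had a fold enrichment of 2.24 (percentile 75.7 of its list), and the bone marrow peaks had 1.88 and 1.40 (percentiles 26.1 and 3.43). The −log10 q of the bone marrow peaks was 0.84 and 0.58 (percentiles 16.0 and 3.09), against 1.67 in fetal liver (percentile 76.5). The larger bone marrow cover at Notch3 thus rests on low-ranked peaks.

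The promoter sequences found for 8 of the members were all richer in CpG than the median mouse promoter, that of the 1 unmarked locus, Notch1, included. RefSeq promoters (build GRCm38.p6, 250 bases before to 50 after the start) were found for 8 of the 10 genes, 9 promoters in all, since Dll1 has 2. The target genes Hey1 and Heyl had no entry, so their promoters were not examined. They were matched by symbol and were not placed on the mm9 peaks. The observed over expected CpG ratio ran from 0.60 at Dll4 to 1.14 at Jag2, and all 9 values were above the median of 0.38 over 32851 promoters. The upper quartile of all promoters was 0.75. Dll4, the second Dll1 promoter (0.64), Notch1 and Notch3 (0.71) were below it. The value at the unmarked Notch1 was 0.66, at Hes5 it was 1.04 and at the weakly covered Jag2 it was the highest of the 9 promoters. The 250 bases before the start of these 3 genes are shown because they set an unmarked locus beside a weakly and a densely marked one. They are written 5′ to 3′ on the strand of the gene with each CpG in capitals, and are taken from chr2:26503823-26504072 (minus strand) for Notch1, chr12:112929496-112929745 (minus strand) for Jag2 and chr4:154960673-154960922 (plus strand) for Hes5, all on GRCm38.p6.
Notch1: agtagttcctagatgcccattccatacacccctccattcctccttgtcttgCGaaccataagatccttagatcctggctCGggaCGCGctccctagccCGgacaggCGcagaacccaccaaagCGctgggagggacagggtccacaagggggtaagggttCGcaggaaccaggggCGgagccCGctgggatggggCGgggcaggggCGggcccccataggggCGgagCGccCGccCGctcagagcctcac
Jag2: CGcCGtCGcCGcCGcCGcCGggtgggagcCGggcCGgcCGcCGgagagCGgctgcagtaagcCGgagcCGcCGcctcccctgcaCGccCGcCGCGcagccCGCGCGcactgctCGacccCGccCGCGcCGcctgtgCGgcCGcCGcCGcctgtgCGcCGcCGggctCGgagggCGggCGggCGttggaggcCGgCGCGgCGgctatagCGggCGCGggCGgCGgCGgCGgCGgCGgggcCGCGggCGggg
Hes5: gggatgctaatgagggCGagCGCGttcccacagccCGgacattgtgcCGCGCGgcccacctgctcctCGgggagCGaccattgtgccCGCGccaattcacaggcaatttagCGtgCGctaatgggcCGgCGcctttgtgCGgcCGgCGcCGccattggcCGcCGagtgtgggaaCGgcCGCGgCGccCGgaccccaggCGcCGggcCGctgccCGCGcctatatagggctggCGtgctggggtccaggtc
These stretches hold 16, 54 and 32 CpGs, respectively. The 3 genes were picked as examples, and a link between CpG count and covered share was not tested. The RBPJ core letters TGGGAA were searched on both strands (TTCCCA on the other strand) of the 300-base promoters. They occurred in 25.6% of all promoters and in 1 of the 9 member promoters searched, that of Hes5, which had 2 matches. Hey1 and Heyl were not among those searched. The first bases of the matches, on the strand shown, lay 226 and 82 bases before the start, and they are shown in capitals with 12 bases on each side because Hes5 is the textbook Notch target.
Hes5, 226 bases before the start: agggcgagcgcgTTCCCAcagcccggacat
Hes5, 82 bases before the start: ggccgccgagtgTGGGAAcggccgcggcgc
A match of these letters is not shown to be a bound site.

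Among the ligands, the Delta-like genes carried wide marked stretches and the Jagged genes short ones. Dll1, a ligand needed for marginal zone B cells and for body segmentation, was the most densely covered of the 10 loci in both lists. Bone marrow had 4 peaks over 17.9 kb of the 40 kb window (44.8%), and fetal liver had 6 peaks over 25.1 kb (62.6%). Only 0.347% of 50 kb tiles were covered to at least that share in bone marrow, and 0.289% in fetal liver. The tiles are wider than the 40 kb window and were not placed on genes, so this rarity is only a rough guide. The widest bone marrow peak spanned 12.1 kb (chromosome 17, 15509651 to 15521744) with a fold of 1.96, and the widest fetal liver peak 13.2 kb (15513593 to 15526749) with a fold of 1.80. Both were in the lower part of their list by fold (percentiles 33.5 and 35.2), whereas some shorter peaks of the locus ranked higher, up to percentile 82.7 in bone marrow and 74.6 in fetal liver. The lists had 16.8 kb in common, or 93.5% of what bone marrow peaks covered and 67.0% of what fetal liver peaks covered. Fetal liver alone had 3 more short peaks at the low-coordinate side, of 1.41, 0.938 and 0.917 kb, between 6.26 and 11.1 kb from the nearest bone marrow peak.

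Dll4, the ligand that the thymic epithelium presents to incoming progenitors, had the largest ratio of the 9 marked loci. Its bone marrow cover was 6.24 kb in 2 peaks, of 5.02 kb (chromosome 2, 119147507 to 119152529) and 1.21 kb. Fetal liver covered 12.1 kb in 3 peaks, a ratio of 1.94, and a single fetal liver peak of 9.48 kb (119146368 to 119155846) contained both bone marrow peaks whole. All of the bone marrow cover was thus also fetal liver cover, and 51.7% of the fetal liver cover was bone marrow cover. A further fetal liver peak of 0.917 kb, 6.41 kb from the nearest bone marrow peak, had the highest fold of any fetal liver peak at the 10 loci, 3.75, with a −log10 q of 4.55 (percentiles 99.1 and 99.2 of its list).

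The Jagged ligands are expressed by many non-blood tissues, and Jag1 and Jag2 were sparsely covered, for 2.25% and 7.11% of the window in bone marrow and 0.593% and 4.14% in fetal liver. With Notch3 (6.35% and 3.75%) these were the lowest shares of the 9 marked loci. At Jag1 each list had 1 peak, and the 2 did not overlap. The bone marrow peak was 1.57 kb wide (chromosome 2, 136940501 to 136942072) with a fold of 2.69, the fetal liver peak was 0.415 kb wide (136937376 to 136937790) with a fold of 2.98, and 2.71 kb lay between them. Jag1 was the only marked locus with no base in common. At Jag2 each list had 2 peaks in the same 2 places, and the fetal liver peaks lay wholly inside the bone marrow peaks. Bone marrow covered 3.56 kb (chromosome 12, first base 114165680, last base 114170069) and fetal liver 2.07 kb, a ratio of 0.582. A fetal liver peak of 0.687 kb ended 0.031 kb before this window and was not counted in it. With the windows widened by 10 kb at each end, Jag2 (0.707) and Notch3 (0.675) no longer passed the 1.5-fold rule for bone marrow, and only Jag1 (0.264) did.

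**Figure D3:**
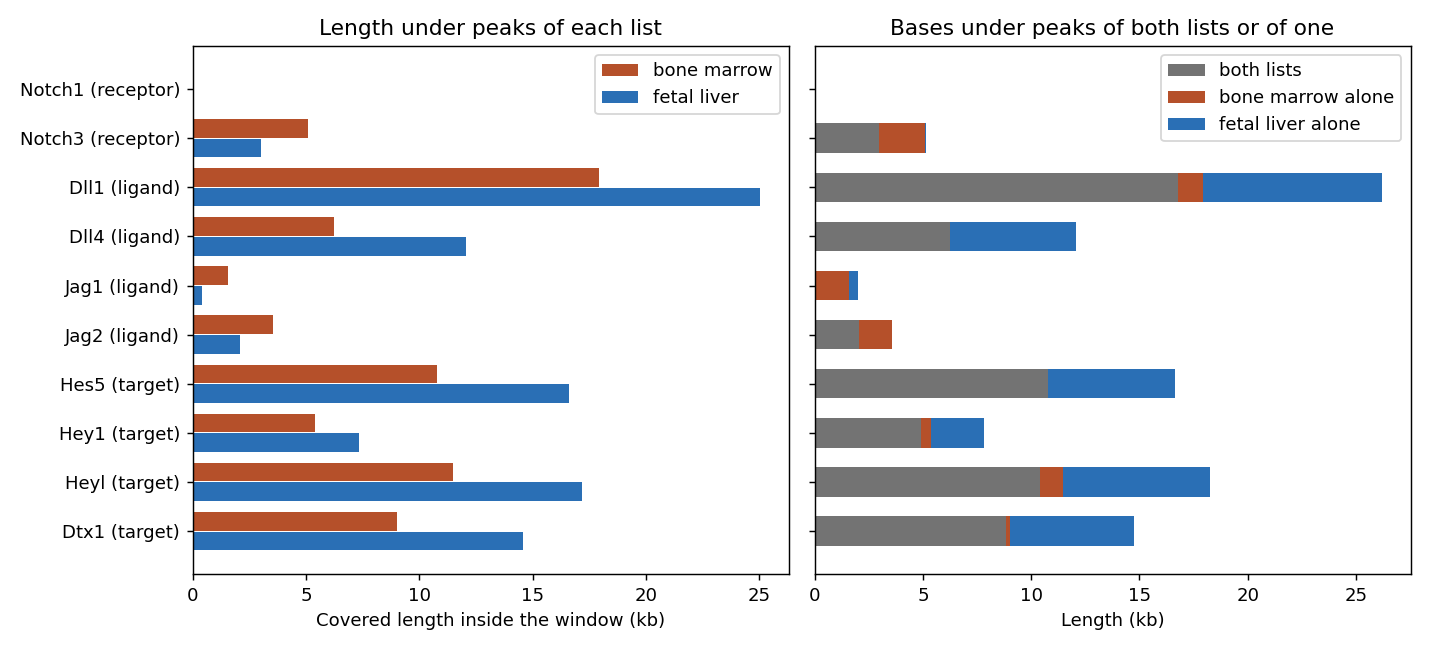
Covered length in kb inside each window under bone marrow and fetal liver peaks (left), and the same length split into bases under peaks of both lists, of bone marrow alone and of fetal liver alone (right). At Dll4 and Hes5 no base is covered by bone marrow alone, at Jag2 none by fetal liver alone, and at Jag1 none by both.

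All 4 target genes were covered more in fetal liver in the lists as deposited, as were 72.6% of tiles with a peak in both lists. The ratios of the 4 targets were 1.36 to 1.62. Together they were covered for 36.6 kb by the bone marrow list and 55.7 kb by the fetal liver list, a ratio of 1.52, which is close to the 1.51 of the whole lists. At the targets 95.3% of the bone marrow cover also lay under fetal liver peaks, against 85.6% at the ligands and 58.1% at Notch3. Over the 10 loci this share was 88.6%, and 64.0% of the fetal liver cover lay under bone marrow peaks. For the whole lists these shares were 74.1% and 49.2%. The 88.6% became 52.3% with only the 20024 top fetal liver peaks, and 0% under either of the cuts on −log10 q and fold given above. The 0% followed from the few peaks left. Under the −log10 q cut only Jag1 kept a peak of each list, and these had no base in common before the cut. Under the fold cut no locus kept peaks of both lists, so neither value describes the shared cover of strong peaks.

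Hes5, which encodes a repressor of the helix-loop-helix class, had the highest covered share of the targets. Its window was 30 kb, and Heyl, with a window of 40 kb, had more covered bases. These were 11.5 against 10.8 kb in bone marrow and 17.2 against 16.6 kb in fetal liver. At Hes5 bone marrow had 2 peaks of 6.82 kb (chromosome 4, 154322446 to 154329263) and 3.96 kb (154331237 to 154335197), together 35.9% of the 30 kb window. Fetal liver had a single peak of 15.8 kb (154321627 to 154337460) that contained both and filled the gap of 1.97 kb between them, and a short one at the window edge, together 55.4%. This was the widest of the 48 member peaks, and its width was at percentile 99.2 of its list. The folds were alike in rank, 2.36 and 2.23 in bone marrow (percentiles 69.0 and 59.2) and 2.15 in fetal liver (percentile 70.0).

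Hey1 and Heyl encode related repressors with a hairy-type domain. Heyl had 1 bone marrow peak of 11.5 kb (chromosome 4, 122909354 to 122920828) and 6 fetal liver peaks over 17.2 kb, the widest of 13.0 kb (122910435 to 122923419). The main peaks shared 10.4 kb. The fetal liver peak began 1.08 kb later and reached 2.59 kb further than the bone marrow peak. The 5 other fetal liver peaks were between 0.353 and 1.42 kb wide and overlapped no bone marrow peak. They added more to the larger fetal liver cover than the difference in width of the main peaks did. The weakest of them, of 0.530 kb, lay 10 bp from the bone marrow peak. It had a fold of 1.10 and a −log10 q of 0.40 (percentiles 0.689 and 0.405). The ratio, 1.50 after rounding (17198 against 11475 bp), was just under the 1.5-fold rule. At Hey1 the 2 bone marrow peaks, of 1.88 kb (chromosome 3, 8664782 to 8666658) and 3.51 kb (8668113 to 8671623), each had a fetal liver counterpart, of 1.92 and 3.04 kb. These shared cores were not wider as a whole in fetal liver. The larger fetal liver cover, 7.34 against 5.39 kb, came from 3 separate peaks of 1.29, 0.854 and 0.239 kb, none of which overlapped a bone marrow peak.

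Dtx1, a ubiquitin ligase that binds the Notch intracellular domain and is induced by Notch in lymphoid cells, had wider cover in fetal liver but higher-ranked peaks in bone marrow. Bone marrow covered 9001 bp of the 60 kb window in 3 peaks and fetal liver 14578 bp in 3 peaks, a ratio of 1.62. The main bone marrow peak of 8.31 kb (chromosome 5, 121155791 to 121164105) lay wholly inside the main fetal liver peak of 12.3 kb (121153331 to 121165642). Its fold was 3.08 with a −log10 q of 3.28 (percentiles 92.3 and 93.0 of the bone marrow list), and that of the fetal liver peak was 1.80 with a −log10 q of 0.99 (percentiles 35.1 and 42.1 of the fetal liver list). The 2 smaller bone marrow peaks, of 0.667 kb and, reaching over the window edge, 0.418 kb, had folds of 3.60 and 5.54. The peaks of fetal liver that overlapped them were wider, 1.87 and 2.81 kb, with folds of 1.63 and 2.25. All 3 bone marrow peaks of at least 3-fold at the 10 loci were at Dtx1, and with both lists limited to such peaks no fetal liver peak was left there. Fold values of 2 lists of unknown depth are not on a shared scale, so ranks are given within each list. These ranks were not adjusted for peak width, and the peaks compared here differ in width.

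**Figure D4:**
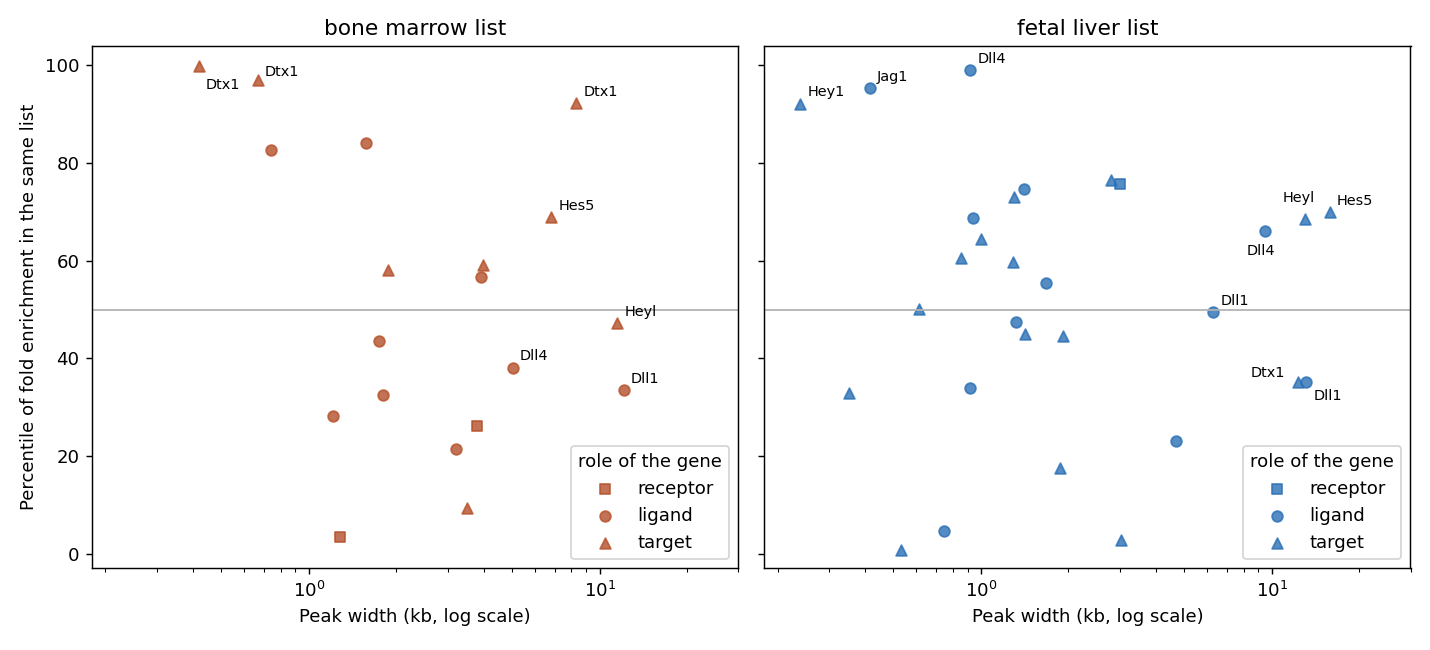
Width in kb (log scale) of each member peak against the percentile of its fold enrichment within its own list, for 19 bone marrow peaks (left) and 29 fetal liver peaks (right), with the grey line at the middle of the list and the gene named for peaks of at least 5 kb or at percentile 92 or higher. In bone marrow the 3 Dtx1 peaks sit at percentiles 92.3 to 99.9, and in fetal liver the widest Dtx1 peak sits at 35.1.

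Compared with their lists, the member peaks were wide but not high. Of the bone marrow member peaks, 5 of 19 were at least 5 kb wide, against 9.54% of that list, and of the fetal liver member peaks 6 of 29, against 8.02%. The median width was 3199 bp for bone marrow members, against 957 bp in the list, and 1412 bp for fetal liver members, against 945 bp. The median fold was 2.09 against 2.12 in bone marrow and 1.98 against 1.93 in fetal liver. A −log10 q of at least 2 was reached by 6 of the 19 bone marrow peaks, against 26.5% of that list, and by 3 of the 29 fetal liver peaks, against 15.2%. Of the member peaks, 17 of 19 in bone marrow and 14 of 29 in fetal liver overlapped a peak of the other list by at least 1 bp, against 68.0% and 39.8% of the lists. Wider peaks are hit more easily, and no level was set by width. Fold and −log10 q were likewise not compared at equal width.

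By length, most of the extra fetal liver cover lay outside the stretch marked in bone marrow. Of 35.4 kb covered in fetal liver alone, 70.5% lay before the first or after the last bone marrow base of the same window, and 10.4 kb lay in gaps between bone marrow peaks. This split was not set against the room that the gaps and the outer parts of the windows offer, nor against tiles. It therefore does not show that the outer parts were filled more densely than the gaps. At Dtx1 4.37 kb lay in gaps and 1.38 kb beyond, but this rests on 19 bp of a bone marrow peak at the window edge. Without these 19 bp, a change made after seeing the data, Dtx1 had 1.54 kb in gaps and 4.22 kb beyond, and the share beyond over the 10 loci was 78.5%. Heyl had 6.80 kb beyond and none in a gap, since it has a single bone marrow peak. Bone marrow alone covered 8.07 kb, of which 5.02 kb, at Notch3, Jag1 and Jag2, lay beyond the fetal liver cover.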

How the data were processed

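H3K27me3 peak lists of bone marrow and fetal liver progenitors were analysed, and groups were taken from the sample titles. The submitters' processing notes name BWA 0.5.7 and MACS2 2.1.0 as well as Picard, and the build mm9. Settings and depth are not given in the labels. Fold enrichment per peak is deposited as a ratio over input, and the deposited significance columns are −log10 p and −log10 q. The deposited score was not used. Covered bases were clipped to the windows and counted with pandas 2.3.3 and numpy 2.4.6 under Python 3.11.15. Counts matched bedtools 2.31.1 in every window, and the code was tested on simulated data, with 200 of 200 simulated tiles recovered exactly. The background was 51567 tiles of 50 kb on chromosomes 1 to 19 and X beyond the first 3 Mb, with mm9 lengths from GenomeInfoDb 1.38.1. Coordinates are 1-based. Figures were drawn with matplotlib 3.10.9. All 10 members are named, with the widest and highest-fold peaks and blocks of at least 1 kb covered in 1 list. The members and lists were chosen with earlier results of these data known. Other Notch pathway genes had been listed but need mm9 gene positions and are not analysed here. The alternatives were cuts on −log10 q, fold and width, a shorter fetal liver list, whole peaks, wider and narrower windows, joined peaks and other tiles.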

Additional observations from a re-analysis of the deposited data

How the results depend on the processing

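No paired analysis was possible because each population has only 1 list. A −log10 q of at least 2 left a bone marrow peak at 4 loci and a fetal liver peak at 3, with 2 loci covered more in fetal liver, 0% of either list's cover in common (88.6% and 64.0% as reported) and a ratio over the 10 loci of 0.0867, against 0.692 for the whole lists. The ratios of Dll1, Hes5 and Dtx1 became 0 there. Only 18.1 kb of bone marrow cover and 1.57 kb of fetal liver cover were left. Jag1 alone kept a peak of each list, and these had no base in common before the cut, so the 0% was fixed. A fold of at least 3 left 1 locus in bone marrow (Dtx1, ratio 0) and 1 in fetal liver (Dll4), so 1 locus was covered more in each, 0% was in common and the ratio was 0.102, against 0.674 for the whole lists. Reducing the fetal liver list to the number of bone marrow peaks left 3 loci covered more in fetal liver and 5 covered at least 1.5 times more in bone marrow. The ratio was 0.885 and 52.3% of the bone marrow cover was in common. The ratios of Dll1, Hey1 and Dtx1 were then 0.483, 0.798 and 0.0438. This cut can only lower them, and the cause of the turns was not tested further. Windows widened by 10 kb left 1 locus covered at least 1.5 times more in bone marrow. Of 59 alternative values of single loci, 49 stayed within 1.5 times of the reported value with the same direction, 3 moved further in the same direction and 7 turned, and 13 could not be formed because no bone marrow peak or no peak was left. Notch3, Dll4, Jag1, Jag2 and Heyl kept their direction wherever a ratio existed, with ratios of 0.462 to 0.675, 1.79 to 1.94, 0 to 0.264, 0.372 to 0.707 and 1.37 to 1.94. This was partly fixed in advance. Notch3, Dll4, Jag2 and Heyl had no ratio under the cuts on −log10 q and fold. The shorter fetal liver list could not turn Notch3, Jag1 or Jag2, which were already covered more in bone marrow. Some of the 49 values could not change at all. No peak reached past the window at Notch3, Dll4, Jag1, Jag2, Hey1 or Heyl, so counting peaks whole repeated their ratios. Narrowing the windows likewise cut no peak at Notch3, Dll4, Jag1, Jag2 or Hey1. The tile rules, 2 of them added after seeing the data, moved by over 1.5 times in 1 case: in tiles with at least 5 kb covered in a list, 5.40% were covered at least 1.5 times more in bone marrow. The unknown depth limits every comparison of covered length.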

Other observations

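Several loci had further peaks just outside their windows. At Dll1 the next fetal liver peak lay 1.73 kb before the window and the next bone marrow peak 151 kb before it. At Dtx1 the next peaks lay 3.70 kb (bone marrow) and 3.33 kb (fetal liver) before the window and were 3.54 and 3.69 kb wide. At Heyl a fetal liver peak of 5.10 kb lay 6.55 kb before the window, where the closest bone marrow peak was 0.513 kb wide and 9.27 kb away. By contrast, Jag1 was isolated on both sides, with no bone marrow peak within 351 kb and no fetal liver peak within 350.3 kb of its window.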
